A study of Mus musculus with 22 samples.

Results

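In neural progenitor cells (NPC) made from mouse embryonic stem cells (ESC), the histone mark H3K27me3 was set against SUZ12, a core subunit of the complex that writes it, to find where the mark stands with little of the complex. The members were chosen by the labels alone and are the 2 H3K27me3 and the 2 SUZ12 libraries of NPC, 4 of 22 libraries in the series, with 1 IgG library of NPC as the background. All libraries came from C57BL/6 ESC with the genotype label untagged, Tir1, and no other treatment than the media below. ESC grew with LIF at 100 U/mL, CHIR99021 at 3 µM and PD0325901 at 1 µM, and for NPC that medium was replaced by one with 10 ng/mL bFGF (72 h) and after it by one with 500 nM SAG (48 h), which switches on Hedgehog signalling through Smoothened. The series used CUT&RUN, in which an antibody tethers a nuclease that cuts out the DNA around its target, and gives the 2 libraries of an antibody as biological replicates. NPC are a culture and not a purified cell type, and whether the line is a single clone is not given in the sources used here.

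Polycomb repressive complex 2 (PRC2) places methyl groups on lysine 27 of histone H3, and its core holds SUZ12, EED and an EZH enzyme. Accessory subunits such as JARID2 and MTF2 sit in separate forms of the complex and help to bring it to CpG islands. H3K27me3 marks promoters of developmental regulators that are silent in a given cell, can be bound again by EED, and is passed on to new nucleosomes when DNA is copied, so that mark and enzyme need not be equally abundant at a site.

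Reads were counted in windows of 5000 bp around 1 transcription start site (TSS) per gene. Total counts were 902245 and 1569812 for the H3K27me3 libraries of NPC, 465885 and 448667 for SUZ12 and 667898 for IgG, against 298458 to 8425292 over the whole series, and 3 counts correspond to 1.91 to 6.69 CPM in these 5 libraries. CPM here are counts per 1e+06 counts after TMM scaling, and a ratio to IgG is a log2 ratio from the joint fit. The 1% of TSSs with the most counts held 11.04% and 19.6% of the H3K27me3 counts, 4.94% and 5.05% of the SUZ12 counts and 2.22% of the IgG counts. The H3K27me3 libraries of NPC thus differed in how far signal stood above background. Their counts had a chi-square over degrees of freedom of 6.67 between replicates, against 1.03 for SUZ12. At TSSs with the mark, replicate 2 was higher than replicate 1 at 3580 of 3587, by a median of 2.28 times. The antibodies differ in their range, so a difference between them in CPM is one between shares of 2 libraries and not between numbers of molecules. The cells are measured in bulk, so fewer cells with a mark and less of it per cell cannot be told apart.

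By H3K4me3, a mark of active and poised promoters, the NPC label held for 5 of 6 neural progenitor markers. Sox1, Pax6, Nes, Fabp7 and Hes5 rose from ESC to NPC in edgeR's quasi-likelihood test, by 1.24 to 3.35 on the log2 scale, while Sox2 fell by 0.30. Of 6 pluripotency markers, Nanog, Pou5f1, Zfp42, Dppa5a and Tdgf1 fell by 3.20 to 4.46, and Esrrb, at 33.2 CPM in ESC, did not pass (adjusted p = 0.137). The neuronal markers Tubb3, Elavl3, Elavl4, Dcx and Map2 rose as well, by 0.58 to 4.86, and their part in the results below was not tested.

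The promoters of 4 genes show the range of sequences at issue. Dpp10, which codes for a subunit that modulates potassium channels, and Lyl1, a transcription factor of blood cells, carried the mark with SUZ12 at the IgG level. T (brachyury), the transcription factor of early mesoderm, had a high mark with SUZ12 slightly over IgG, and Hoxd13, a HOX factor of posterior structures, had both. Each is the RefSeq promoter of build GRCm38.p6, from 250 bases before to 50 bases after the start, 5′ to 3′ on the strand of the gene, with CG dinucleotides in capitals. Dpp10 lies at chr1:124045510-124045809 on the minus strand, Lyl1 at chr8:84701207-84701506 on the plus strand, T at chr17:8434173-8434472 on the plus strand and Hoxd13 at chr2:74667975-74668274 on the plus strand.
Dpp10: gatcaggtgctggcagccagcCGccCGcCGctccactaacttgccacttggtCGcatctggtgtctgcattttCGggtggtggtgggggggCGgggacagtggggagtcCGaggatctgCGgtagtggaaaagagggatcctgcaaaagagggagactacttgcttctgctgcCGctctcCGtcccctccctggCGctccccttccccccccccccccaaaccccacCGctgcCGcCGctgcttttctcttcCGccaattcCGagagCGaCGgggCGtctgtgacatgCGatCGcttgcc
Lyl1: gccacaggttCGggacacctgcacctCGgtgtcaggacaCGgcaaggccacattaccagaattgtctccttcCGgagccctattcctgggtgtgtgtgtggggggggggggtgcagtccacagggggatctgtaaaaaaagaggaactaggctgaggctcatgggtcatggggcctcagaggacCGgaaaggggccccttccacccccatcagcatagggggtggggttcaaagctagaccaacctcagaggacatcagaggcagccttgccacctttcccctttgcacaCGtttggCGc
T: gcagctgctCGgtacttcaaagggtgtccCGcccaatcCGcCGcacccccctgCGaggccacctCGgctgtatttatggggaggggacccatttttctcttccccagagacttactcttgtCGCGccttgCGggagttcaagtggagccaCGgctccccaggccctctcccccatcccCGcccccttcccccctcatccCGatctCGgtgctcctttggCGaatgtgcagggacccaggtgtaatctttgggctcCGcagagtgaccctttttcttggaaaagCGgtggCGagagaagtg
Hoxd13: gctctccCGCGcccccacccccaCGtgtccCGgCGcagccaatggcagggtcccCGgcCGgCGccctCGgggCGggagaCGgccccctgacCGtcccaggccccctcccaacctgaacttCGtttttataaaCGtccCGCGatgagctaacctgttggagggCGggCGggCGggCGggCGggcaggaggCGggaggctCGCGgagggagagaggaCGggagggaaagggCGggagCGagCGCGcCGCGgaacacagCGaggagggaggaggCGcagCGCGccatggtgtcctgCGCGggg
The Dpp10 promoter holds 21 CG dinucleotides, that of Lyl1 7, that of T 17 and that of Hoxd13 37. Dense CG was thus present and absent among the promoters with the mark and little SUZ12.

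Set directly against each other, H3K27me3 was higher than SUZ12 at 2001 of 22684 TSSs tested (8.82%) and SUZ12 was higher at 392 (1.73%) by edgeR's quasi-likelihood test with Benjamini-Hochberg adjusted p below 0.05. The median log2 difference over all TSSs was -0.11. Of the 2001, 1865 also had H3K27me3 called over IgG, and at 1996 both H3K27me3 libraries were above both SUZ12 libraries. The same libraries entered the test, so these counts are given as a description. Over the TSSs of the joint fit, the libraries stood apart in this way at 6310 of 23896. Of the 2393 called, 83.6% were higher for the mark, which was 44.4% with scaling by library totals (median log2 difference of all TSSs -0.86) and 95.5% with TMM factors from background TSSs (0.09). The counts rest on a spread pooled over both pairs of replicates, whose chi-square over degrees of freedom was 6.67 for the mark and 1.03 for SUZ12. Without either SUZ12 library, the spread came from the H3K27me3 pair alone, and almost no TSS was called higher for the mark. Without either H3K27me3 library, it came from the SUZ12 pair alone, and more TSSs were called. The calls thus did not hold against the spread of the H3K27me3 pair alone.

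The largest differences were at developmental genes and genes of unlike function. The 10 genes named here were chosen among TSSs with the mark called and libraries that do not overlap, so that separation is a description. Wnt10a (chr1:74789518-74794518), a ligand of the WNT pathway, had 374 and 1151 CPM of H3K27me3, 29.1 and 37.1 CPM of SUZ12 and 32.5 CPM of IgG. The H3K27me3 libraries were both far above the SUZ12 libraries, and the latter lay on either side of IgG. The log2 difference was 4.42 ± 1.19 (SE, n = 2 and 2, edgeR adjusted p = 0.0140). Prss16, a thymus-specific protease, had 325 and 906 CPM of the mark and 30.8 and 30.1 CPM of SUZ12 against 24.7 CPM of IgG, a difference of 4.23 ± 1.11 (adjusted p = 0.0121). Hotair, a long noncoding RNA of the HoxC cluster, had the highest CPM of the mark among the 10 genes with the largest differences, with 635 and 1807 CPM, and 54.7 and 70.7 CPM of SUZ12 over 35.9 CPM of IgG. Its difference was 4.18 ± 1.34 (adjusted p = 0.0294). The next by size were Spag6, a sperm flagellum gene, Robo3, an axon guidance receptor, Insl3, a peptide hormone, Irx4, a homeobox factor of the heart, Skor2, a corepressor of Purkinje cells, Paupar, a noncoding RNA next to Pax6, and Atp12a, a proton pump. Their differences ran from 4.00 to 3.82 with adjusted p of 0.0138 to 0.0264. Their SUZ12 libraries had 30.8 to 68.4 CPM, and their ratios of SUZ12 to IgG were -0.16 to 0.89. In ESC, H3K27me3 was called over IgG at 9 of these 10 TSSs, all but Insl3, and SUZ12 at 4 of them, Spag6, Irx4, Skor2 and Paupar.

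Among landmark genes, T passed with 403 and 1186 CPM of H3K27me3, 58.1 and 61.9 CPM of SUZ12 and 40.4 CPM of IgG, a log2 difference of 3.62 ± 1.16 (adjusted p = 0.0294). Pax6, a factor of the neural tube that is on in progenitors of its middle part, had 198 and 639 CPM of the mark and 75.2 and 53.0 CPM of SUZ12, and its difference of 2.60 ± 0.93 was close to the threshold (adjusted p = 0.0491). Pou5f1, the pluripotency factor OCT4, had 70.9 and 191 CPM of the mark and 39.3 and 35.4 CPM of SUZ12 over 32.5 CPM of IgG, with a difference of 1.71 ± 0.60 (adjusted p = 0.0459). For these genes the groups of libraries did not overlap. Sox1, a factor of all early neural progenitors, had 43.7 and 128 CPM of the mark and 63.2 and 84.9 CPM of SUZ12, so that the groups overlapped (0.12 ± 0.55, adjusted p = 0.925), and the sign of its difference turned with scaling by library totals and 4 other settings. At Olig2, Tbx3, Zic5, Hoxd13 and Gata6 the mark was at 4.51 to 5.20 over IgG, yet the difference from SUZ12, 1.62 to 2.24, did not pass (adjusted p = 0.172 to 0.395).

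To separate a low SUZ12 level from one that was merely not called, SUZ12 was tested against a bound of 2-fold over IgG. H3K27me3 was called over IgG at 3587 of 23896 TSSs (15.0%), at a log2 ratio of at least 1. SUZ12 was called over IgG at 0 (0%) in the joint fit by edgeR, with 472 (1.98%) at an unadjusted p below 0.05, and at 452 in a fit of the SUZ12 and IgG libraries of NPC alone. SUZ12 was called under the bound at 10953 TSSs (45.8%). Both calls held at 640 TSSs, which are the TSSs with the mark and little SUZ12. The call under the bound was thus less frequent at marked TSSs (17.8%) than over all TSSs (45.8%). Since no TSS passed the SUZ12 call, a second set was formed after seeing the data from the 448 TSSs (1.87%) where SUZ12 was at least 2-fold over IgG in both libraries: 408 of them carried the mark. The other 2539 marked TSSs lay in between, and 754 of all 3587 had SUZ12 below IgG. The calls share the NPC IgG library, which is 1 library assumed to vary like the other groups. Without replicate 2 of H3K27me3 the mark was called at 2122 TSSs and 299 had little SUZ12. Without replicate 1 or 2 of SUZ12, 219 or 230 had little SUZ12. In a fit of H3K27me3, SUZ12 and IgG of NPC alone, 312 TSSs had the mark and 10 had little SUZ12.

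**Figure D1:**
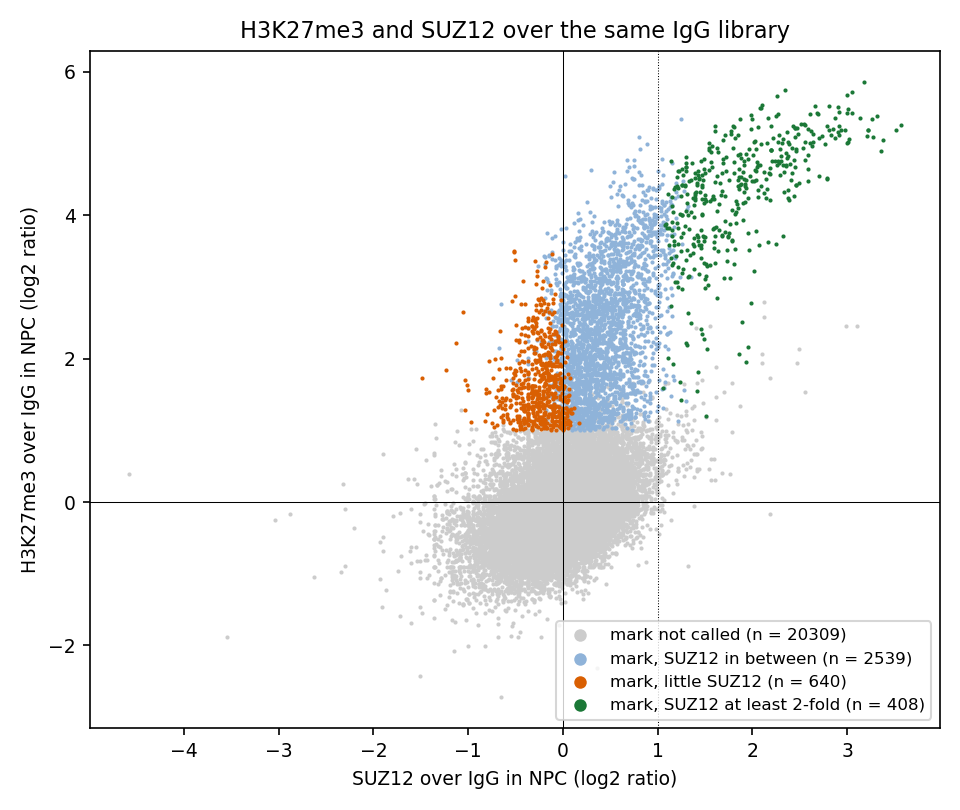
Log2 ratio of SUZ12 to IgG (horizontal axis) and of H3K27me3 to IgG (vertical axis) in NPC, 1 point per TSS, with the dotted line at 2-fold SUZ12. The 640 TSSs with little SUZ12 have ratios of the mark from 1.0 upwards with SUZ12 around or below 0, while the 408 with SUZ12 lie at the upper right. Both axes share 1 IgG library.

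The sets differed in the height of the mark. The median ratio of H3K27me3 to IgG was 1.55 at TSSs with little SUZ12, 4.48 at those with SUZ12 and 2.34 in between, against -0.09 over all TSSs. In the set with little SUZ12, the mark had a median of 77.4 and 148 CPM in the 2 libraries. At TSSs with SUZ12 it had 344 and 1023 CPM. The values of SUZ12 were 32.5 and 31.8 CPM and 104 and 103 CPM, and those of IgG 39.2 and 30.3 CPM. These values chose the sets and are given as a description. IgG was thus higher at TSSs with little SUZ12 than its median of 31.4 CPM over all TSSs, and the part of this in the calls was not tested. The spread behind the bound came from the joint fit, which holds the H3K27me3 libraries. Some TSSs with a high mark and SUZ12 near IgG were left out, such as Wnt10a (mark 4.55, SUZ12 0.02). With the bound from SUZ12 and IgG alone, 1325 marked TSSs had little SUZ12. The part of the bound in the height of the mark was not tested.

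The 10 members of the set named for the highest mark had it at 2.88 to 3.46 over IgG with SUZ12 at or below IgG. S1pr5 (chr9:21245943-21250943), a receptor for sphingosine 1-phosphate, had 263 and 651 CPM of H3K27me3, 41.0 and 35.4 CPM of SUZ12 and 41.5 CPM of IgG. The mark was 3.46 ± 0.45 over IgG and SUZ12 was -0.12, with a 95% interval of -1.07 to 0.83. Dpp10 (chr1:124043059-124048059) had 136 and 378 CPM of the mark, and SUZ12 at 20.5 and 14.1 CPM was below the 24.7 CPM of IgG. Its SUZ12 ratio of -0.50 had an interval of -1.72 to 0.71. Lyl1 (chr8:84698956-84703956) had 247 and 596 CPM of the mark with 41.0 and 37.1 CPM of SUZ12 and 47.1 CPM of IgG. SUZ12 was below IgG in both libraries at S1pr5, Dpp10 and Lyl1. The other 7 named by the height of the mark were Ccdc106, Arg2, a mitochondrial arginase, Myrip, a linker of vesicles to myosin, Vstm2a, a secreted factor, Rfx6, a transcription factor of pancreatic endocrine cells, Npw, a neuropeptide, and Cdh3, P-cadherin. Their mark was 2.88 to 3.37 over IgG, and their SUZ12 ratios of -0.51 to -0.08 had upper limits of 0.45 to 0.83.

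Near the thresholds, Ptprn was just inside the bound on SUZ12 (ratio -0.04, adjusted p = 0.0499) and Atp12a just outside it (ratio -0.16, adjusted p = 0.0535), the latter with a mark of 3.75 over IgG. Klhl36 was just inside the call of the mark, at 1.03 (adjusted p = 0.0435). Wnt10a, with SUZ12 at 0.02 over IgG, was not in the set either because its interval of -1.27 to 1.32 reached past 2-fold.

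**Figure D2:**
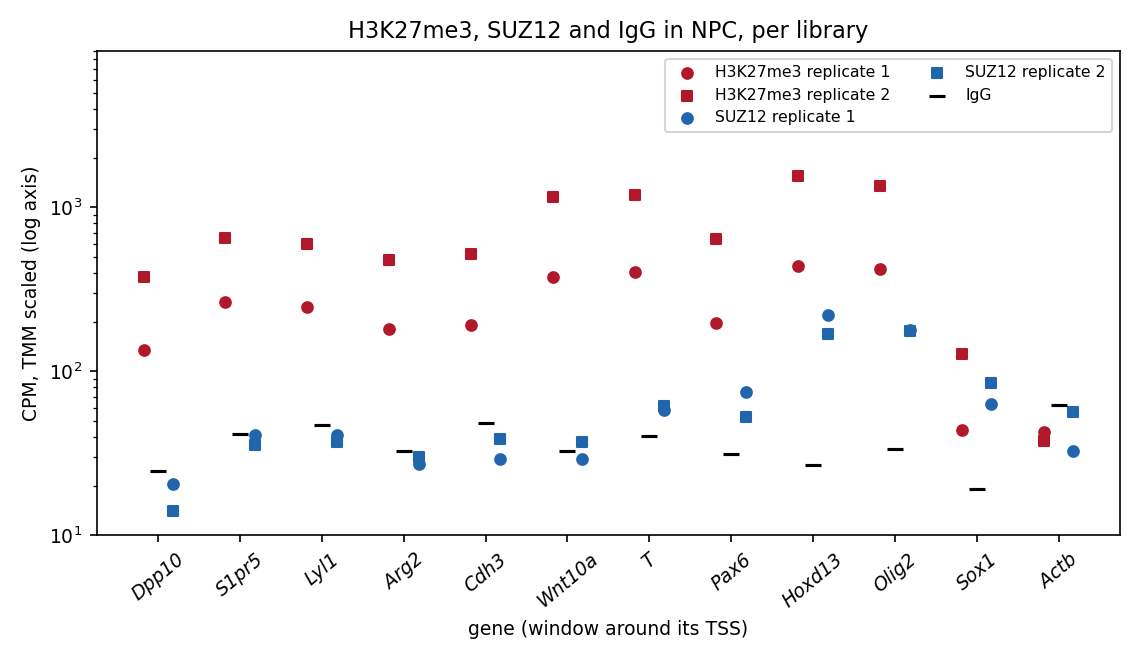
TMM-scaled CPM in each NPC library on a log axis for 12 genes: H3K27me3 (red), SUZ12 (blue) and IgG (black bar), circles for replicate 1 and squares for replicate 2. At Dpp10, S1pr5, Lyl1, Arg2, Cdh3 and Wnt10a SUZ12 lies near IgG with the mark far above it. At Hoxd13 and Olig2 both lie above IgG, and at Actb neither antibody exceeds it.

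The 408 TSSs with the mark and SUZ12 included most HOX genes and many neural and mesodermal regulators. Hoxd13 (chr2:74665809-74670809) had 438 and 1550 CPM of H3K27me3 and 221 and 170 CPM of SUZ12 over 26.9 CPM of IgG. Olig2 (chr16:91223049-91228049), a factor of motor neuron and oligodendrocyte progenitors, had 418 and 1345 CPM of the mark and 179 and 175 CPM of SUZ12 over 33.6 CPM of IgG. At both, every library of either antibody was above IgG. The log2 difference was positive at 406 of the 408 and had a median of 2.38, against 1.75 at the TSSs with little SUZ12. Of all marked TSSs tested, it was positive at 3582 of 3585. It passed the test at 56 of 408 (13.7%) and at 460 of 640 with little SUZ12 (71.9%). The shares were 52.0% of all marked TSSs and 8.82% of all TSSs tested. These counts are given as a description, since the SUZ12 values that chose the sets enter this test. The H3K27me3 libraries differed by a median of 3.07 times at the 408 and of 1.97 times at the 640, and the part of this in these counts was not tested.

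In ESC, whose levels did not enter the ratios that chose the sets, TSSs with the mark and little SUZ12 mostly had the mark too. The ESC libraries were part of the joint fit, and so of the filter, scaling and estimate of spread behind both calls in NPC. H3K27me3 was called over the ESC IgG at 424 of 640 (66.2%) and at 347 of 408 with SUZ12 (85.0%), against 22.1% of all TSSs. The share was 70.2% in between and 71.2% of all TSSs marked in NPC, so that of the 640 was near them. SUZ12 was called in ESC at 35 of 640 (5.5%), near its share of all TSSs (5.21%), and at 295 of 408 (72.3%). The median ratio of SUZ12 to IgG in ESC was 0.41 at the 640 and 2.87 at the 408, against -0.05 over all TSSs, and that of the mark was 1.61 and 2.63, against -0.11. At 392 of the 640 (61.2%), ESC thus had the mark called and SUZ12 not called, which does not show that SUZ12 was absent there. Another 213 (33.3%) had neither called in ESC.

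**Figure D3:**
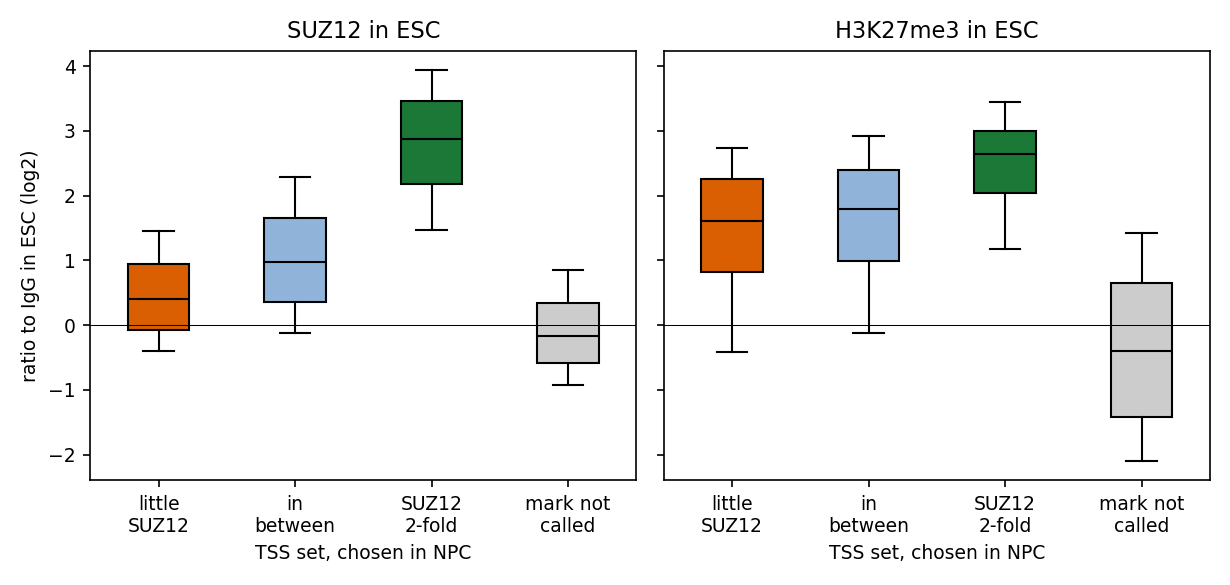
Log2 ratio to the ESC IgG library of SUZ12 (left) and H3K27me3 (right) in ESC, for TSS sets chosen in NPC (640, 2539, 408 and 20309 TSSs from left to right). Boxes span the quartiles with the median as a line, and whiskers the 10th to 90th percentiles. The set with little SUZ12 has a median of 0.41 for SUZ12 and 1.61 for the mark.

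The 35 TSSs with the mark and little SUZ12 in NPC and SUZ12 called in ESC are those where SUZ12 was measured high in ESC and low in NPC. At Dpp10, SUZ12 had 115 and 73.3 CPM in ESC over 7.65 CPM of IgG, and H3K27me3 had 185 and 141 CPM. That IgG value is 3 counts, and the log2 ratio of the 141 SUZ12 counts to it, scaled by library, was 3.68 with an exact 95% interval of 2.11 to 5.98 for counting error only. Fa2h, an enzyme of myelin lipids, had 128 and 133 CPM of SUZ12 in ESC and 20.5 and 40.7 CPM in NPC, where the mark had 111 and 269 CPM. Elovl4, which lengthens very long fatty acids, had 104 and 80.2 CPM of SUZ12 in ESC and 41.0 and 26.5 CPM in NPC, with 70.9 and 168 CPM of the mark. The others named were Esr2, oestrogen receptor beta, Sertm1, Prss23, a serine protease, Pcdha9, a clustered protocadherin, Ptprn, a protein of secretory granules, Klhl36 and Fgf12, an intracellular FGF. Their SUZ12 ratios in ESC were 1.96 to 2.57 and in NPC -1.03 to 0.01. Their H3K27me3 libraries in NPC ranged from 46.1 to 248 CPM, all above the SUZ12 libraries. The change in SUZ12 from ESC to NPC was not tested for these sets.

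H3K4me3 and MTF2 were compared between NPC and ESC in fits of their own. Their counts did not enter the ratios that chose the sets, but their libraries were in the joint fit that set the filter, scaling and spread. H3K4me3 fell at 262 of 639 TSSs with little SUZ12 (41.0%) and rose at 126 (19.7%), beside 29.2% and 26.7% of all TSSs. It fell at 41.6% of all marked TSSs and rose at 26.7%, and in between at 39.3% and 29.1%. At TSSs with SUZ12 it fell at 231 of 407 (56.8%) and rose at 91 (22.4%). Where ESC had neither mark nor SUZ12 called, the TSSs with little SUZ12 lost H3K4me3 at 144 of 213 and gained it at 10, a median change of -0.67. Where ESC had both, it rose at 19 of 32 and fell at 5, a median change of 0.42. At Elovl4 H3K4me3 had 34.5 and 31.2 CPM in ESC and 63.6 and 86.4 CPM in NPC (log2 change 1.11 ± 0.12, edgeR adjusted p = 4.85e-21). At S1pr5 it had 19.7 and 12.4 CPM in ESC and 8.0 and 9.01 CPM in NPC (-1.07 ± 0.29, adjusted p = 0.000469).

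MTF2 fell from ESC to NPC at 143 of 637 TSSs with little SUZ12 (22.4%) and rose at 2, beside 9.04% and 3.26% of all TSSs. At TSSs with SUZ12 it fell at 26 of 402 (6.5%) and in between at 892 of 2516 (35.5%). The median change was -0.49 with little SUZ12 and -1.07 with SUZ12, against 0.07 over all TSSs, so the set with fewer calls had the larger change. The MTF2 libraries of NPC stood apart, with medians of 68.6 and 153 CPM at TSSs with SUZ12 and 35.2 and 36.6 CPM at those with little. The MTF2 counts over all TSSs depended on single libraries: without replicate 1 of NPC 79 fell, and without replicate 1 of ESC 191. At Pcdha9, MTF2 had 146 and 118 CPM in ESC and 17.6 and 15.9 CPM in NPC (-2.89 ± 0.43, edgeR adjusted p = 6.55e-08). At Arg2 it had 89.4 and 82.5 CPM in ESC and 29.9 and 31.8 CPM in NPC (adjusted p = 0.00280). JARID2 in NPC, with its 2 libraries counted as 1 sample because the counts agree within sampling noise (chi-square over degrees of freedom 0.998), had medians of 35.7 CPM at TSSs with little SUZ12 and 48.5 CPM with SUZ12, against 32.1 CPM over all TSSs.

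Gene lists followed different patterns of mark and SUZ12, and are given by counts only. All 39 HOX genes of the 4 clusters carried the mark, and 34 had SUZ12 at least 2-fold over IgG in both libraries. The shares of all TSSs were 15.0% and 1.87%. In the HoxA cluster the mark was a median 5.17 and SUZ12 2.34 over IgG, and H3K27me3 was called higher than SUZ12 at 0 of its 11 genes. The calls were 0 of 10 in HoxB and 0 of 9 in the HoxC cluster, but 2 of 9 in HoxD, beside 8.82% of all TSSs. Of the 39 HOX windows, 24 overlap another. Their median differences were 2.43 to 2.94, all positive, so the absence of calls does not show equal levels. Hoxd4, which passed, had 191 and 650 CPM of the mark and 37.6 and 31.8 CPM of SUZ12 over 28.0 CPM of IgG. Of 24 forebrain regulators, 23 had the mark, 20 had SUZ12 2-fold over IgG and 2 were called higher for the mark. Lhx9, a LIM homeobox factor, was the one with the smallest p, at 191 and 645 CPM against 32.5 and 44.2 CPM of SUZ12.

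The WNT ligands and the BMP and FGF genes, a list that includes the intracellular FGFs, were counted in the same way, beside 15.0% of all TSSs with the mark, 1.87% with SUZ12 2-fold over IgG in both libraries and 8.82% called higher for the mark. Of 19 WNT ligands, 17 had the mark, 6 had SUZ12 2-fold over IgG in both libraries and 10 were called higher for the mark, with a median difference of 2.94. Of 33 BMP and FGF genes, 26 had the mark, 6 had SUZ12 and 14 were called higher, with a median of 2.13. Wnt2 (2.82 over IgG, SUZ12 -0.22) and Fgf12 were in the set with little SUZ12. Fgf16, with the smallest p among the BMP and FGF genes, had 136 and 355 CPM of the mark and 17.1 and 40.7 CPM of SUZ12. The 6 WNT ligands with SUZ12 were Wnt1, Wnt3a, Wnt5a, Wnt6, Wnt7b and Wnt10b. Their SUZ12 was 1.31 to 1.80 over IgG and their mark 4.04 to 5.00.

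**Figure D4:**
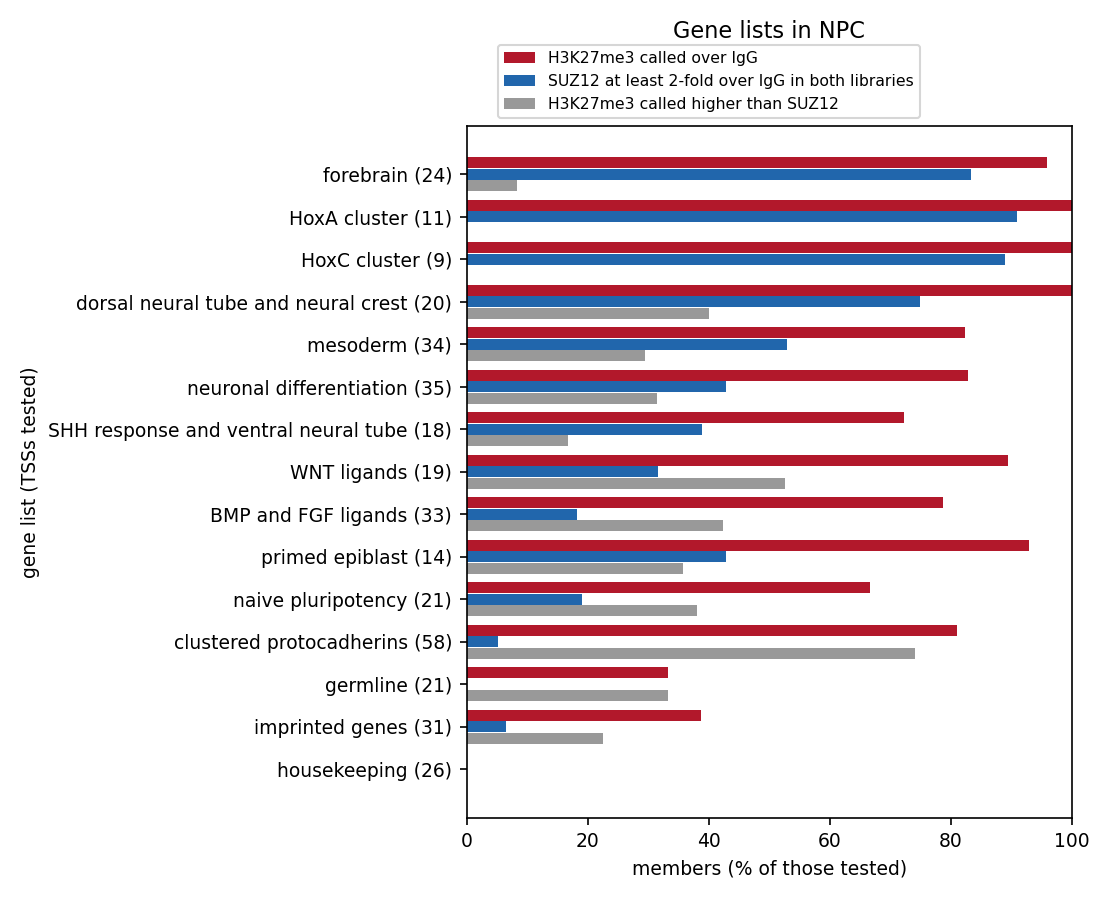
Share of the TSSs tested in each gene list (number in brackets) with H3K27me3 called over IgG (red), SUZ12 at least 2-fold over IgG in both libraries (blue) and H3K27me3 called higher than SUZ12 (grey). HOX and forebrain genes have long red and blue bars, clustered protocadherins long red and grey bars, with 47, 3 and 43 of 58, and housekeeping genes none.

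The clustered protocadherins, cell surface proteins of neurons that are chosen in combinations from arrays of variable exons, had the mark with SUZ12 close to IgG (median ratios 2.16 and 0.17). Of 58 TSSs, 47 had the mark, 3 had SUZ12 2-fold over IgG in both libraries and 43 were called higher for the mark. The shares of all TSSs were 15.0%, 1.87% and 8.82%. The share called higher was the largest among the lists, with all 58 differences positive and a median of 1.87. Median differences were larger in the HOX clusters (2.43 to 2.94), where few members were called. Their median levels were 65.0 and 177 CPM of H3K27me3, 30.8 and 30.1 CPM of SUZ12 and 25.8 CPM of IgG. Since 20 of the 58 windows overlap another, neighbours share reads, and of the 38 that overlap none, 32 were called (84.2%). The alpha and beta arrays were called at 12 of 14 and 21 of 22, and the gamma array at 10 of 22, whose SUZ12 was a median 0.44 over IgG against 0.15 and 0.08. In ESC, the mark was called at 55 of 58, beside 22.1% of all TSSs, and SUZ12 at 26, beside 5.21%. H3K4me3 fell at 42 and rose at 4, beside 29.2% and 26.7% of all TSSs, and MTF2 fell at 41, beside 9.04%. Pcdha9, with the smallest p of the list, had 69.7 and 128 CPM of the mark, 17.1 and 12.4 CPM of SUZ12 and 30.3 CPM of IgG, and a SUZ12 ratio of -1.03 (95% interval -2.04 to -0.02). Of 12 other protocadherins 3 were called.

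Most naive pluripotency genes carried the mark in NPC. Of 21 naive pluripotency genes, H3K27me3 was called over IgG at 14 in NPC and at 1 in ESC, Esrrb. SUZ12 was 2-fold over IgG in both NPC libraries at 4, and 8 were called higher for the mark. The shares of all TSSs were 15.0%, 22.1%, 1.87% and 8.82%, in the same order. The change in the mark between the cell types was not tested here. Nr5a2, an activator of Pou5f1, was in the set with little SUZ12 (mark 1.38, SUZ12 -0.50 over IgG). Nr0b1 (DAX1), on the X chromosome, had 39.0 and 117 CPM of the mark, 15.4 and 14.1 CPM of SUZ12 and 12.3 CPM of IgG (log2 difference 2.3 ± 0.44, edgeR adjusted p = 0.000173). Klf4 and Tbx3 had SUZ12 at 1.61 and 2.79 over IgG. At Nanog neither was called, with 41.3 and 44.6 CPM of the mark and 41.0 and 24.8 CPM of SUZ12. Of 14 primed epiblast genes 13 had the mark and 5 were called higher for it, and Lefty1, an inhibitor of Nodal, had little SUZ12 (mark 2.00, SUZ12 -0.65 over IgG).

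Further members of the lists with the mark and little SUZ12 were Meox2 and Mesp1 (mesoderm), Sycp1 and Sycp2 (synaptonemal complex of meiotic chromosomes), H19 and Magel2 (imprinted), Grhl3 and Krt18 (epithelium), Slc1a3 (the glial glutamate transporter), Phc2 (PRC1), Phf19 (an accessory subunit of PRC2 related to MTF2) and Zfp9. Their mark was 1.04 to 2.75 and their SUZ12 -0.65 to -0.10 over IgG. Meox2 had 131 and 398 CPM of the mark and 25.6 and 38.9 CPM of SUZ12 over 39.2 CPM of IgG. Of 20 dorsal neural tube and neural crest genes, 20 had the mark, beside 15.0% of all TSSs, and 8 were called higher for it. Beside 8.82% of all TSSs, the counts of members called higher for the mark were 11 of 35 neuronal genes, 10 of 34 mesoderm genes, 4 of 24 neural progenitor genes, 3 of 19 endoderm, 3 of 16 surface ectoderm, 7 of 21 germline, 7 of 31 imprinted, 3 of 18 SHH response and 1 of 12 glial genes. Among large families, 4 of 803 olfactory receptors, 0 of 182 vomeronasal receptors, 5 of 327 Zfp genes and 3 of 108 keratin genes were called higher for the mark. Of 26 housekeeping genes 0 had the mark, beside 15.0% of all TSSs. At Actb H3K27me3 had 42.5 and 37.4 CPM and SUZ12 32.5 and 56.6 CPM, all below the 62.8 CPM of IgG.

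RefSeq promoters of 300 bp were matched to 16640 of 24467 windows. The median number of CG dinucleotides was 17 in 428 promoters of TSSs with little SUZ12, 20 in 246 with SUZ12 and 14 in all 16297 tested. At least 10 were found in 74.5%, 86.2% and 57.7%. The quartiles of the set with little SUZ12 were 9 and 26, and those of the set with SUZ12 13 and 27, so the 2 overlap over most of their range. Of the TSSs with little SUZ12, 4.5% lay within 50 kb of another TSS with SUZ12 called in ESC, near the 4.2% of all TSSs, against 23.0% of those with SUZ12. Neighbours less than 5000 bp away, whose windows overlap, were left out of these shares. Windows that overlap another made up 17.2% of the set with little SUZ12 and 32.1% of that with SUZ12. The part of such windows in these shares was not tested.

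**Figure D5:**
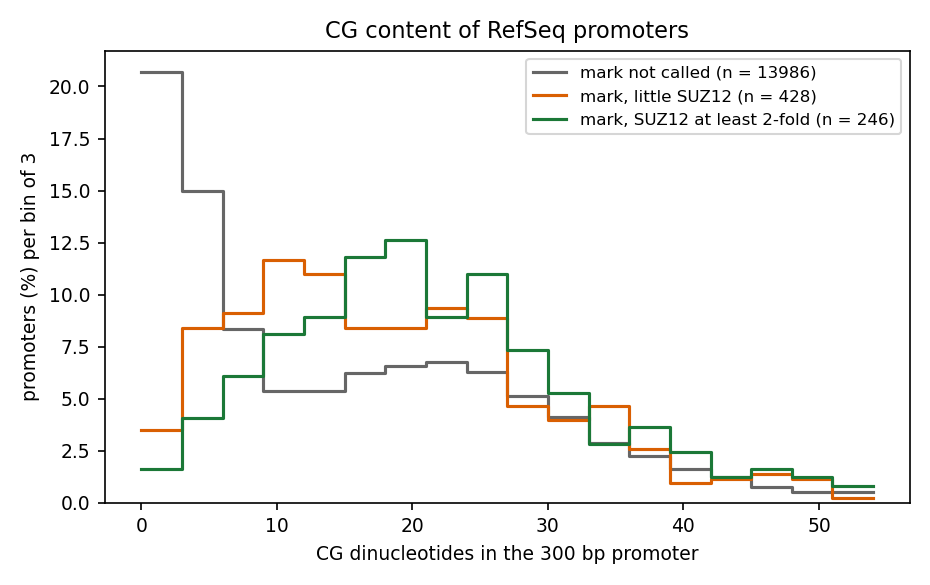
Share of RefSeq promoters (vertical axis) by number of CG dinucleotides in 300 bp (horizontal axis, bins of 3), for TSSs without the mark, with the mark and little SUZ12, and with the mark and SUZ12. The last 2 lines, with medians of 17 and 20, overlap widely, and both have few promoters in the lowest bin.

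At the 392 TSSs where SUZ12 was higher than H3K27me3, the mark was mostly below IgG and SUZ12 slightly above it. H3K27me3 was below IgG at 385 and SUZ12 above it at 344. Their median ratios were -0.72 and 0.33, against -0.09 and 0.004 over all TSSs. The same libraries chose these TSSs, so the values are given as a description. H3K4me3 had medians of 107 and 131 CPM there in NPC, against 34.0 and 39.7 CPM over all TSSs, and 38.8% of the windows overlapped another. The 5 with the smallest p, named after their values were seen, were Csad, Psap, Igf2bp1, Stx12 and Slc45a4. Igf2bp1, an RNA-binding protein of fetal tissues, had 17.7 and 31.4 CPM of the mark, 63.2 and 63.6 CPM of SUZ12 and 38.1 CPM of IgG (difference -1.44 ± 0.37, edgeR adjusted p = 0.0112). Eed, a core subunit of PRC2, was among the 392 with a difference of -1.38 ± 0.42 (adjusted p = 0.0236). The count depended on the setting: 90 TSSs were called with TMM factors from background TSSs, 2448 with library totals, 2704 at a minimum count of 30, and 16 with DESeq2, which differs in its test as well as its scaling.

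By chromosome, H3K27me3 was called higher than SUZ12 at 20.2% of 490 TSSs tested on X, 16.6% on chromosome 18 and 4.4% on chromosome 11, against 7.7% to 10.4% on the others. With no filter on low counts the share on X was 9.4% of 1036. Without the clustered protocadherins that on chromosome 18 was 10.4% of 539. Median IgG in NPC was 44.8 CPM on chromosome 11, 13.5 CPM on X and 28.0 to 33.6 CPM on the others, and its part in these shares was not tested. Of the 640 TSSs with little SUZ12, 6 were on X.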

How the data were processed

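The deposited table holds counts: whole reads per TSS window, mm10, not normalized, per the file headers. The submitters' processing notes name Bowtie2 2.3.4.3 and, with no role, Picard 2.19. Neither the counting program nor the treatment of duplicates is given in the sources used here. Spike-in and genome-wide read totals were not used here, and a change shared by all TSSs cannot be seen. Of 24467 windows, 5370 (21.9%) overlap another. Coordinates of windows are those of the table.

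edgeR 4.0.16 (R 4.3.3) quasi-likelihood tests with TMM and filterByExpr (minimum count 10) were fitted to 4 libraries for H3K27me3 against SUZ12, H3K4me3 and MTF2, and jointly to 21 columns for ratios to IgG. Calls used a Benjamini-Hochberg adjusted p below 0.05, with a log2 ratio of at least 1 over IgG. The bound shifted the SUZ12 offsets by 1 log2 unit. P-values of the fits to 4 libraries rest on a spread estimated from both pairs of replicates together. For H3K27me3 against SUZ12 these pairs differ, with a chi-square over degrees of freedom of 6.67 and 1.03. P-values of ratios to IgG and of the bound rest on a spread pooled over the groups of the joint fit, with 1 IgG library of NPC. None of them measures the spread of the H3K27me3 libraries alone. On simulated counts with 1 dispersion, the direct test recovered 56% of 4-fold and 7% of 2-fold differences, and the bound was called at 36% of TSSs with no difference and 0% of 4-fold ones. The simulated libraries shared 1 profile, whereas the H3K27me3 replicates differed by a median of 2.28 times at TSSs with the mark. Recovery at such TSSs was therefore not estimated.

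The members and lists were chosen with earlier results of these data known. Genes named were landmarks and the list member with the smallest p if it passed. Others were the 10 with the largest H3K27me3 minus SUZ12 and, of TSSs with little SUZ12, the 10 with the highest mark. Of those with SUZ12 called in ESC, the 10 with the largest SUZ12 ratio to IgG in ESC were named as well. All these lay in windows that overlap no other, excluding predicted, small RNA, olfactory and vomeronasal receptor genes. The largest differences also needed libraries that do not overlap in CPM, the mark called over IgG and a log CPM at or above the median. Added after values were seen were list members with little SUZ12, and Wnt1, Wnt3a, Wnt5a, Wnt6, Wnt7b, Wnt10b, Csad, Psap, Igf2bp1, Stx12 and Slc45a4. Other settings included DESeq2 1.42.0. Same-numbered H3K27me3 and SUZ12 libraries did not deviate together (r = -0.02), so the numbers were not taken as pairs.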

Additional observations from a re-analysis of the deposited data

How the results depend on the processing

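Counts that moved by over 1.5 times follow, with ranges for 1 library left out, and the cause was not tested. TSSs called higher for H3K27me3 than SUZ12 (2001) were 3769 in a joint fit of all groups and 439 with a replicate block, a number that the H3K27me3 and SUZ12 libraries share with no sign of pairing (r = -0.02). With 1 library left out they were 0 to 4667. TSSs higher for SUZ12 (392) were 16 with DESeq2, 2448 with library totals, 90 with TMM factors from background TSSs, 2704 at a minimum count of 30, 130 with the block and 0 to 600 with 1 library left out. Of the 2001, 1827 were also called by DESeq2, 1470 with library totals and 1765 with background TSSs.

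TSSs with the mark over IgG (3587) were 312 in a fit of H3K27me3, SUZ12 and IgG, 5 in one of H3K27me3 and IgG (added after seeing the data), 2126 with library totals, 2141 at a log2 ratio of at least 2 and 2122 to 3633 with 1 library left out. SUZ12 over IgG (0) was called at 156 with totals, 20 with the IgG libraries of both cell types, 0 to 217 with 1 library left out and, added after seeing the data, 452 in a fit of SUZ12 and IgG and 448 by 2-fold in both libraries. SUZ12 under the bound (10953) was 5211 to 11115 with 1 library left out. The 640 TSSs with little SUZ12 were 10 in the fit of H3K27me3, SUZ12 and IgG, 358 with totals (145 shared), 1207 with both IgG libraries (577 shared), 144 at a log2 ratio of 2 (all shared), 3587 where SUZ12 was merely not called, 1325 with the bound from SUZ12 and IgG alone (639 shared) and 219 to 838 with 1 library left out. TSSs with mark and SUZ12 both called (0) were 156, 20, 445 and 408 under the settings of SUZ12 over IgG in that order, and 0 to 216 with 1 library left out.

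H3K4me3 higher in NPC (5286) was 3222 to 6203 with 1 library left out. MTF2 higher (681) was 2343 with totals, 4 with DESeq2, 146 with the block and 20 to 581 with 1 library left out. MTF2 lower (1887) was 1074, 364 with the block, 379 at a minimum count of 30 and 79 to 2045. With crossed replicate numbers as a block (added after seeing the data), 5093 and 5565 TSSs were called for H3K4me3 and 988 and 3108 for MTF2. With 1 library in a group, that library was assumed to vary like the others.

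Of named genes, the sign of H3K27me3 minus SUZ12 turned at Sox1 with library totals (-0.75), a minimum count of 30 (-0.45), the replicate block (-0.003), without replicate 2 of H3K27me3 (-0.73) and without replicate 1 of SUZ12 (-0.08), at Nanog with totals (-0.44), and without replicate 2 of SUZ12 at Actb (0.24) and Suz12 (0.14). With 1 library left out these differences spanned -0.73 to 0.80 at Sox1, -0.56 to 0.24 at Actb and -0.83 to 0.14 at Suz12. The ratio of H3K27me3 to IgG turned with totals at Nanog (-0.56), Syp (-0.32) and Krt76 (-0.75), and at Krt76 without replicate 2 of H3K27me3 (-0.44, and 0.38 without replicate 1). Depth also limits the bound: 3 counts are 6.44 and 6.69 CPM in the SUZ12 libraries.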

Other observations

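Median IgG was higher on chromosome 11 and lower on X in both cell types, at 44.8 and 13.5 CPM in NPC and 45.9 and 12.8 CPM in ESC. The highest ratio of the mark in the set with little SUZ12 was at Acan, which codes for aggrecan of the extracellular matrix, and at Gm26633, whose windows overlap, at 3.50 and 3.49 over IgG with SUZ12 at -0.52 at both (named after their values were seen).

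Among TSSs with the mark in NPC, changes of MTF2 and H3K4me3 were counted by the state in ESC. Where ESC had both the mark and SUZ12 called, MTF2 fell at 26 of 32 TSSs with little SUZ12 in NPC and at 340 of 477 in between, and H3K4me3 rose at 19 of 32 and 254 of 477. In the same ESC state, the TSSs with SUZ12 at least 2-fold in NPC had MTF2 lower at 18 of 278, and H3K4me3 fell at 143 and rose at 77. Of all TSSs, MTF2 fell at 9.04%, and H3K4me3 fell at 29.2% and rose at 26.7%. The few MTF2 calls do not show that MTF2 was kept. Over all TSSs with mark and SUZ12 its median change was -1.07, against -0.49 with little SUZ12. Its NPC libraries differed there, with medians of 68.6 and 153 CPM. Where ESC had neither, MTF2 fell at 16 of 213 and 58 of 709, and H3K4me3 fell at 144 of 213 and 454 of 715, and among those with SUZ12 MTF2 fell at 1 of 40 and H3K4me3 at 37 of 43. The difference between these groups was not tested.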
